A study of Homo sapiens with 16 samples.

Results

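Expression of 9 genes of sterol uptake, sterol export and SREBP control was followed in MCF-10HER-2 cells (called MCF10HER2 below) for 45 h after addition of CP724,714. The genes were VLDLR, INSIG1, STARD4, SREBF1, SREBF2, SCAP, ABCA1, ABCG1 and MYLIP, and they were found by their gene symbol in the array table, which gave 15 of the 20589 probes and 9 of the 18190 symbols. MCF-10HER-2 cells descend from MCF-10A, an immortal and nontransformed epithelial line of the human breast, and carry a transduced HER-2, a receptor tyrosine kinase that they overexpress stably. CP724,714 blocks the kinase of that receptor. The cells grew in serum-free medium that contained EGF and hydrocortisone and no insulin, and these conditions were shared by every array.

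Of the 16 arrays, 1 came from an untreated culture (0 h) and 15 from cultures that received 1 µM CP724,714 and were harvested every 3 h from 3 to 45 h. Each time point was 1 parallel culture with no replicate, so the errors below are residuals from the fitted course. A control culture without inhibitor was analysed here only at 0 h, and the cells received fresh medium together with the inhibitor, so that inhibitor, fresh medium and time in culture cannot be told apart. A single transduced line was used, and whether it was 1 clone was not given in the sources used here. In a bulk culture, fewer cells with a transcript and less transcript per cell cannot be told apart.

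Sterol regulatory element binding proteins (SREBPs) are transcription factors that are held in the endoplasmic reticulum by SCAP and the INSIG proteins when sterols are plentiful and are carried to the Golgi and cleaved when sterols are scarce. The released fragments turn on the genes of sterol and fatty acid synthesis, lipoprotein receptors and INSIG1 itself, which closes a feedback loop. The liver X receptors (LXRs) are activated by oxysterols. They turn on the exporters ABCA1 and ABCG1 and the ubiquitin ligase MYLIP (also called IDOL), which marks lipoprotein receptors for degradation. Of the genes followed here, VLDLR is a lipoprotein receptor, STARD4 carries cholesterol between membranes, SREBF1 and SREBF2 encode the SREBPs, SCAP escorts them and INSIG1 retains the SCAP-SREBP complex.

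Promoter sequences are shown for INSIG1, SREBF1, SREBF2 and MYLIP, the followed genes with the wider changes over time, so that the letters bound by SREBPs, NF-Y and LXRs can be looked for beside the values. The RefSeq promoter table (GRCh38.p14) held 8 of the 9 genes, and the 250 bases before the start of each gene were searched on both strands. The motifs were a sterol regulatory element (TCACNCCAC), the NF-Y box (CCAAT), the E-box (CACGTG) and an LXR direct repeat (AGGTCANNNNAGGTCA). Each sequence runs 5′ to 3′ on the strand of its gene, and capitals mark the matches, where ATTGG is the NF-Y box read on the opposite strand.
INSIG1, chr7:155297628-155297877, plus strand: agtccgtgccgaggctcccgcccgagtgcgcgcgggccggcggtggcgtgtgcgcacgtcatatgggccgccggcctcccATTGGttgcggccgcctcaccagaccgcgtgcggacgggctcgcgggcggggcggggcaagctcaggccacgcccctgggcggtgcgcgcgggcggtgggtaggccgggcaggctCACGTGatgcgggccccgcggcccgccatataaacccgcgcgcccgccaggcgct
SREBF1, chr17:17836987-17837236, minus strand: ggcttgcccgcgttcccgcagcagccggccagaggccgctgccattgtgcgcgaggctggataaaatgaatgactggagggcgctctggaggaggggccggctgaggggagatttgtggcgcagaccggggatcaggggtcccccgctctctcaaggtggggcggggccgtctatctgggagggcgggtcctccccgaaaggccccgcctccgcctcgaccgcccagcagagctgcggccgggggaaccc
SREBF2, chr22:41832855-41833104, plus strand: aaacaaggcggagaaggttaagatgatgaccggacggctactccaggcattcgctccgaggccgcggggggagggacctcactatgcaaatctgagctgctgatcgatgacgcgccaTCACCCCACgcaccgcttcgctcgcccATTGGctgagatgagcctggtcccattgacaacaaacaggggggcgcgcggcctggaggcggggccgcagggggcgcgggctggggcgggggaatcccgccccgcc
MYLIP, chr6:16128836-16129085, plus strand: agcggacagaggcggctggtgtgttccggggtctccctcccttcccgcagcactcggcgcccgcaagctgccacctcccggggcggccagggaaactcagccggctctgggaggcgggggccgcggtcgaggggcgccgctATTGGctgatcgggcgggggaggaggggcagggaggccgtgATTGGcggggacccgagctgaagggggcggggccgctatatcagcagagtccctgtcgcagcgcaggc

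The sterol regulatory element matched in SREBF2 alone among the 8 genes, 133 to 125 bases before the start, and 0.883% of the 35116 promoters in the table held a match. The NF-Y box matched once in INSIG1, once in SREBF2, 2 times in MYLIP and 2 times in STARD4, against 32% of all promoters with at least 1 match. The E-box matched once each in INSIG1, SCAP and ABCA1, and 6.34% of all promoters held it. No match to the LXR direct repeat was found in the 8 genes. Only 5 of the 35116 promoters (0.0142%) held this exact string, so its absence from 8 genes says nothing about LXR binding. SREBF1 and VLDLR held none of these letter strings in this window. Only the start listed for each gene was searched, so any other promoter of a gene was not covered. These matches describe the letters only.

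The cells showed an epithelial expression profile. KRT5 and CDH3, keratin and cadherin markers of basal breast epithelium, had median log2 signals of 14.74 and 11.32, and KRT8, KRT18 and EPCAM were likewise detected on all 16 arrays. CDH1 and TP63, of the same lists, were close to background (median 8.05 each, detected on 15 and 14 arrays). LAMB3, also of the basal list, had a median of 11.86 but passed the detection p on only 2 arrays, so a bright probe could fail it. KRT14 was detected on 1 array, and KRT17 rose by 2.90 over 45 h on the log2 scale (adjusted p = 5.33e-06). The fibroblast collagens COL1A1 and COL1A2 were detected on no array, and COL3A1 was detected on 2 (median 7.94). None of the leukocyte, endothelial or adipocyte markers had a median log2 signal above 8.27. Of these, CD14 and PECAM1 nevertheless passed the detection p on all 16 arrays. The 2 probes of ERBB2, the gene of HER-2, were detected on 1 and 7 arrays with a log2 signal no higher than 8.01, so the array gave no view of the transduced receptor. An array detected 10363 to 11436 probes, and the signal was dimmer at 9 h and 18 h. Background was 135.9 to 148.9 for the earlier 8 arrays (0 to 21 h) and 164.5 to 173.9 for the later 8 (24 to 45 h). The earlier and later arrays were handled as batches, although the labels name no chip, and the split runs along time.

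Of the 9 genes, 6 gave a signal that could be followed. A probe was tested when its detection p-value, which sets it against the negative controls of its array, was under 0.05 on 3 or more arrays. By this rule 8 of the 15 probes were tested, and 7 of them are followed here, both INSIG1 probes and the brightest probe of each of the other 5 genes. The lipoprotein receptor VLDLR (probe ILMN_14681) was detected on 0 of 16 arrays, with detection p-values from 0.0932 to 0.658. STARD4 (ILMN_27466) had detection p-values from 0.257 to 0.973 and the exporter ABCA1 (ILMN_21049) from 0.137 to 0.758. These 3 genes were not well above background at any time, in the untreated culture as in the treated ones, and no fold change is given for them.

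**Figure D1:**
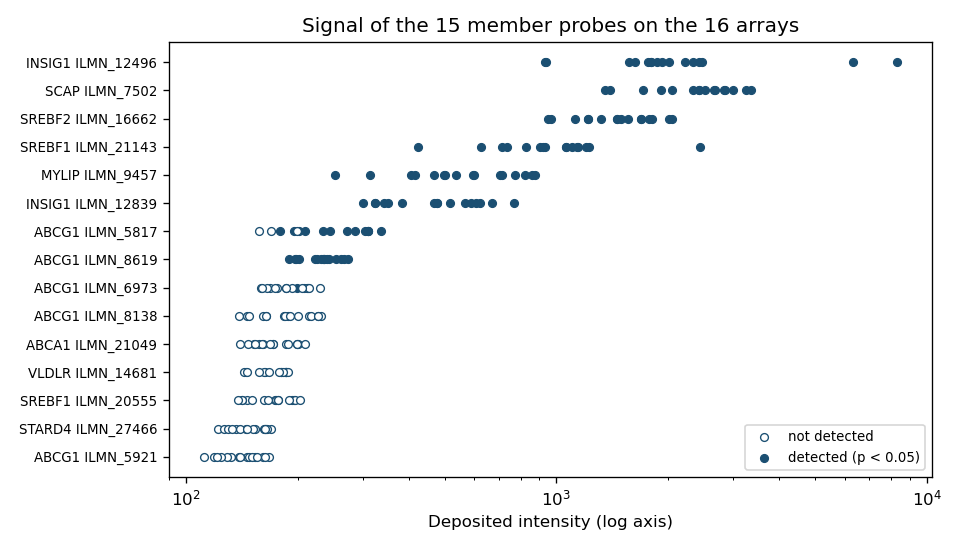
Deposited intensity (log axis) of the 15 probes of the 9 genes, 1 row for each probe and 1 point for each of the 16 arrays, filled where the detection p-value was under 0.05. Every point of the VLDLR, STARD4 and ABCA1 probes is open, and every point of the INSIG1, SCAP, SREBF2 and MYLIP probes and of SREBF1 ILMN_21143 is filled. Probes differ in efficiency, so rows are not levels to be set against each other.

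Of the 7 probes, 6, in 5 of the 6 genes, changed with time in the spline fit, against 41.9% of the 12321 tested probes. The SREBP control genes INSIG1, SREBF1 and SREBF2 were lower under the inhibitor than before it, and the ubiquitin ligase gene MYLIP was higher at the end of the course than in its middle. SCAP, the escort, did not pass the test. The median fitted range of the 7 probes was 0.93 on the log2 scale, against 0.26 over all tested probes. The median difference between treated and untreated arrays was -0.54 for the 7 probes, against 0.00418 over all tested probes. The untreated group is 1 array with no spread of its own, so every test of treated against untreated takes its scatter from the treated arrays. All values below are normalized log2 signals unless called intensities, and an adjusted p is that of limma with the Benjamini-Hochberg adjustment over all tested probes.

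**Figure D2:**
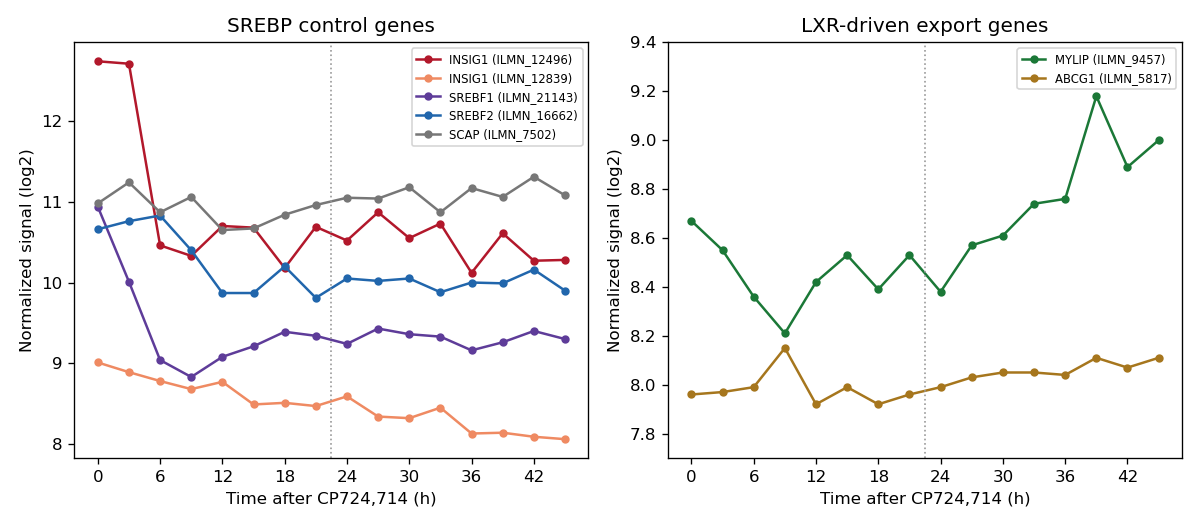
Normalized log2 signal against hours after CP724,714, 1 point for each array, for INSIG1, SREBF1, SREBF2 and SCAP (left) and MYLIP and ABCG1 (right, on a narrower axis). The dotted line separates the array batches of 0 to 21 h and 24 to 45 h. INSIG1 ILMN_12496 goes from 12.71 at 3 h to 10.46 at 6 h, SREBF1 reaches 8.83 at 9 h, and MYLIP goes from 8.21 at 9 h to 9.18 at 39 h.

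INSIG1, the feedback inhibitor of SREBP processing, fell under the inhibitor on both probes, and on the brighter one did so in a single interval. Its brighter probe (ILMN_12496) gave 12.74 in the untreated culture and 12.71 at 3 h, but 10.46 at 6 h. From 6 to 45 h it stayed between 10.12 and 10.87, so that the 14 later arrays lay below the first 2 without overlap. The step from 3 to 6 h was 4.74-fold, and of all tested probes 2 had a larger decrease in that interval. The 15 treated arrays averaged 2.09 below the untreated one on the log2 scale (SE 0.41, adjusted p = 0.00181), which is 4.26-fold lower, although the 3 h array belonged to the high level. The fitted range was 2.58 (adjusted p = 0.000275), and 39 of the tested probes had a larger one. From 6 h on no further change was called, with a change over 39 h of -0.15 (adjusted p = 0.639). The straight line over 45 h, at -1.48 (SE 0.47, adjusted p = 0.027), therefore describes a step poorly, and its adjusted p was 0.137 at most when 1 array was left out, with the call lost without the 0 h or the 3 h array. Within 0 to 21 h alone the line gave -2.16 over 21 h (adjusted p = 0.0525), and within 24 to 45 h alone -0.42 (adjusted p = 0.105).

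The dimmer INSIG1 probe (ILMN_12839) was highest before treatment and lowest at the end. This probe did not share the step of the brighter one, with a decrease of 1.08-fold from 3 to 6 h. It read 9.01 at 0 h, the highest of the 16 arrays, 8.48 at the median and 8.06 at 45 h, the lowest. Its slope was -0.88 over 45 h (SE 0.08, adjusted p = 8.23e-07), and its decline was called within 0 to 21 h (-0.54 over 21 h, adjusted p = 0.0359) and within 24 to 45 h (-0.48 over 21 h, adjusted p = 0.000448) separately. The means over successive sets of 4 arrays were 8.56 ± 0.14 (SD, n = 4 arrays) from 12 to 21 h, 8.43 ± 0.12 from 24 to 33 h and 8.11 ± 0.04 from 36 to 45 h. The dim probe depends more on the background model: with the negative controls of each array read at detection p-values near 0.5 and 0.16 in place of those limma inferred (the second reading of the negative controls, added after the values were seen) its fitted range was 2.50 in place of 0.97 and its slope -2.24, against 2.42 in place of 2.58 for the range of the brighter probe. Without normalization between arrays its slope was -0.52 and was not called (adjusted p = 0.185), nor was it with sets of 4 time points as a block (adjusted p = 0.575). The table does not say which transcripts each probe reads.

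SREBF1, which encodes SREBP-1, the SREBP best known for fatty acid synthesis, fell and was lower from the first treated array on. Its detected probe (ILMN_21143) gave 10.94 without inhibitor and 10.01 at 3 h, then 9.04 at 6 h, and its lowest value was 8.83 at 9 h. From 12 h to the end it lay between 9.08 and 9.43, so that the untreated array stood above all 15 treated arrays. The step from 0 to 3 h was 1.90-fold and the step from 3 to 6 h was 1.96-fold. The treated arrays averaged 1.65 below the untreated array (SE 0.24, adjusted p = 0.000106), which is 3.13-fold lower, with 1 untreated array and no spread of its own behind it. The fitted range was 1.84 (adjusted p = 0.000178). The straight line was not called (-0.54 over 45 h, SE 0.34, adjusted p = 0.273), since the decrease lay at the start of the course. From 6 to 45 h the linear change was 0.31 over 39 h (adjusted p = 0.0914). The spline over that span was called (fitted range 0.46, adjusted p = 0.0366). The spline call over the whole course rests on the untreated array: without it the fitted range was 0.66 (adjusted p = 0.113) and the slope 0.01. The other SREBF1 probe (ILMN_20555) passed the detection p on 1 array, too few for a test.

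SREBF2, which encodes SREBP-2, the SREBP best known for cholesterol synthesis and uptake, fell, with values below the untreated one from 9 h on. It gave 10.66 without inhibitor, 10.76 at 3 h and 10.83 at 6 h, its highest value. The 9 h array read 10.40 and the 12 h array 9.87. From 12 to 45 h it ranged from 9.81 to 10.20, and none of these 12 arrays overlapped with the first 4. The fitted range was 0.93 (adjusted p = 0.00446), and the treated arrays averaged 0.54 below the untreated array (SE 0.18, adjusted p = 0.0388), which is 1.46-fold lower. This difference was not called when any of 6 single arrays (15, 21, 27, 30, 39 or 45 h) was left out, with an adjusted p of at most 0.0559. The decline of -1.01 over 21 h within 0 to 21 h was called (adjusted p = 0.0363), and the change of -0.04 within 24 to 45 h was not (adjusted p = 0.864). With median scaling of the arrays in place of quantile normalization SREBF2 lost the calls of all 3 fits, where the fitted range was 0.59 (adjusted p = 0.409), the slope -0.24 (adjusted p = 0.471) and the treated difference -0.58 (adjusted p = 0.152).

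SCAP, which escorts the SREBPs to the Golgi, showed no called change with all 16 arrays and quantile normalization. Its signal was 10.98 at 0 h, and over the 16 arrays it was lowest at 12 h (10.65), 11.05 at the median and highest at 42 h (11.31). Treated and untreated arrays differed by 0.02 (SE 0.16, adjusted p = 0.95), a difference that turned to -0.03 with median scaling and to -0.14 without normalization between arrays. Its slope of 0.23 (SE 0.16, adjusted p = 0.322) was called with median scaling, at 0.64 (adjusted p = 0.0341), and turned to -0.16 with the array batch as a block. The spline called SCAP without the 0 h array (fitted range 0.48, adjusted p = 0.0412) and without normalization between arrays (0.98, adjusted p = 0.0299), in place of a range of 0.36 (adjusted p = 0.19).

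**Figure D3:**
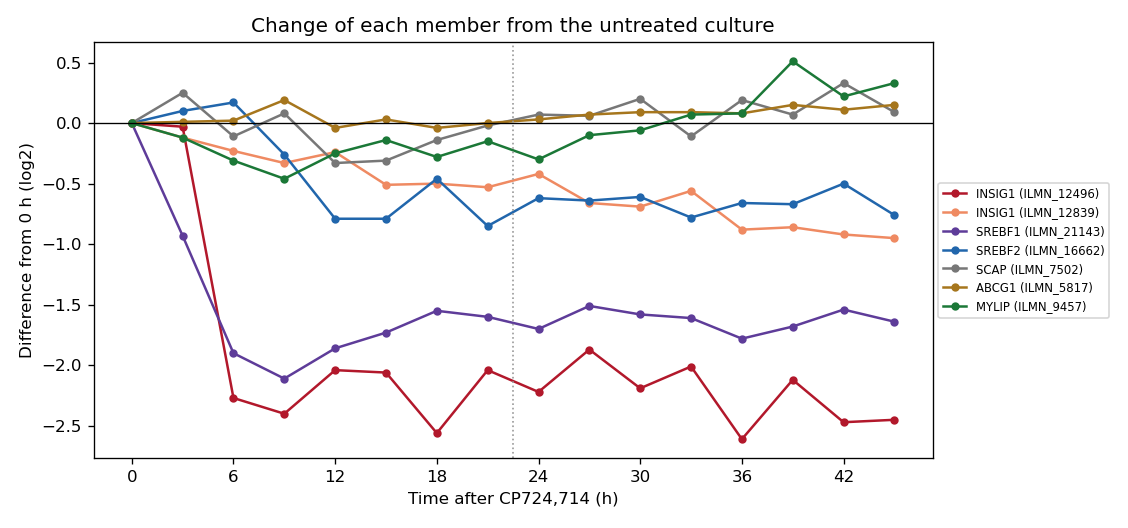
Log2 difference of each treated array from the untreated 0 h array against hours after CP724,714, 1 line for each probe, with 0 marked by the horizontal line and the array batches separated by the dotted line. INSIG1 ILMN_12496 and SREBF1 lie lowest from 6 h on, SREBF2 lies below 0 from 9 h on, and SCAP, ABCG1 and MYLIP stay between -0.46 and 0.51.

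MYLIP, the ubiquitin ligase that removes lipoprotein receptors, rose late. It gave 8.67 at 0 h, 8.21 at 9 h, its lowest value, 8.38 at 24 h, 9.18 at 39 h, its highest value, and 9.00 at 45 h. The mean was 8.47 ± 0.07 (SD, n = 4 arrays) from 12 to 21 h, 8.58 ± 0.15 from 24 to 33 h and 8.96 ± 0.18 from 36 to 45 h. The fitted range was 0.69 (adjusted p = 0.00102) and the slope 0.58 over 45 h (SE 0.14, adjusted p = 0.00596). The rise was called within 24 to 45 h (0.64 over 21 h, adjusted p = 0.00154) and not within 0 to 21 h, where the change was -0.09 (adjusted p = 0.722). Treated and untreated arrays did not differ by the test (-0.07, SE 0.13, adjusted p = 0.788), because values on both sides of the untreated level entered the mean. At 45 h the signal was 1.25-fold that at 0 h. With the second reading of the negative controls the fitted range was 1.23 and the slope 1.01.

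ABCG1, an exporter of cholesterol to lipoproteins, stayed close to background. Its brightest probe (ILMN_5817) was detected on 13 of 16 arrays, with 7.96 at 0 h, 7.92 at its lowest, 8.01 at the median and 8.15 at its highest. The fitted range was 0.14 (adjusted p = 0.0472) and the slope 0.12 over 45 h (SE 0.04, adjusted p = 0.0457). Neither call was firm: leaving out 1 array ended the slope call for 13 of the 16 arrays and the spline call for 10 of them, with adjusted p-values up to 0.117 and 0.107. A further ABCG1 probe (ILMN_8619) was detected on all 16 arrays and had the opposite slope, -0.06 (SE 0.02, adjusted p = 0.0214). The remaining 3 ABCG1 probes were detected on 2, 0 and 0 arrays. A direction for ABCG1 therefore cannot be given from this array. With the second reading of the negative controls the range of ILMN_5817 was 1.24 in place of 0.14.

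By direction, the linear fit called 2 of the 7 probes higher (MYLIP and ABCG1, against 12.9% of all tested probes) and 3 lower (both INSIG1 probes and SREBF2, against 11.5%). The comparison of the treated arrays with the untreated array called 4 probes lower (both INSIG1 probes, SREBF1 and SREBF2, against 10.3%) and 0 higher (against 8.62%), and at an unadjusted p under 0.05 in limma the counts were also 4 and 0. The same 4 probes were at least 1.7-fold below 0 h at 1 or more time points (against 9.47% of all tested probes). INSIG1 ILMN_12496 was past that fold at 14 of 15 time points, SREBF1 at 15, SREBF2 at 4 and INSIG1 ILMN_12839 at 4. No followed probe was 1.7-fold above 0 h at any time with this processing, where 10.9% of all tested probes were. The count past 1.7-fold in either direction depended on the processing. It was 5 in place of 4 with the second reading of the negative controls and with normexp on the signals alone. Without normalization between arrays it was 6. The direction of the added probes was not counted.

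Each batch was also fitted alone. Within 0 to 21 h alone 2 of 7 probes were called lower (INSIG1 ILMN_12839 and SREBF2, against 5.49%) and 0 higher (against 5.79%). Within 24 to 45 h alone, 1 was called lower (INSIG1 ILMN_12839, against 12.8%) and 2 higher (MYLIP and ABCG1, against 12%). From 6 to 45 h alone 1 was called lower (INSIG1 ILMN_12839, against 10.3%) and 1 higher (MYLIP, against 11.7%), and the spline called 5, all but INSIG1 ILMN_12496 and SCAP (against 43.4%). A test of the difference between the slopes of the 0 to 21 h and 24 to 45 h spans of the course called SREBF2 and MYLIP, against 24.8% of all tested probes. For SREBF2 the later change minus the earlier one was 0.98 over 21 h (SE 0.29, adjusted p = 0.0208), and for MYLIP it was 0.73 (SE 0.21, adjusted p = 0.0179). The array batch changes at the same time, so batch and time cannot be told apart in these differences. With the batch as a block in the fit over all 16 arrays, the spline still called 5 of the 7 probes (against 29% of all tested probes), with adjusted p-values of 0.00189 and 0.0016 for the INSIG1 probes, 0.000401 for SREBF1, 0.0214 for SREBF2 and 0.0112 for MYLIP, and ABCG1 was not called (0.247). The linear fit with this block called INSIG1 ILMN_12839 alone (-1.09, adjusted p = 0.000933), against 6.17% of all tested probes.

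INSIG1, SREBF1 and SREBF2 were then set against the LXR-driven genes within each array. The log2 signal of ABCG1 or MYLIP was subtracted from that of every tested probe, and a straight line was fitted to the difference. ABCA1, VLDLR and STARD4 could not enter because none was detected. ABCG1 lay close to background and has no settled direction, so on this scale the differences from it stay near the slopes of the other genes themselves. Against ABCG1, 3 of 4 probes had a lower slope, where 32.3% of all tested probes did. The difference was -1.61 over 45 h for INSIG1 ILMN_12496 (SE 0.46, adjusted p = 0.0123), -1.01 for INSIG1 ILMN_12839 (SE 0.10, adjusted p = 7.56e-07) and -0.82 for SREBF2 (SE 0.19, adjusted p = 0.00419). SREBF1 minus ABCG1 was -0.66 (SE 0.34, adjusted p = 0.113) and was not called, whereas without the 9 h array it was -0.87 (adjusted p = 0.0216). INSIG1 ILMN_12496 minus ABCG1 was not called without the 0 h array (adjusted p = 0.0636) or from 6 to 45 h alone (adjusted p = 0.325). With the array batch as a block INSIG1 ILMN_12839 alone kept its call against ABCG1 (adjusted p = 0.00269), while the adjusted p was 0.0846 for INSIG1 ILMN_12496 and 0.0986 for SREBF2. SREBF2 minus ABCG1 was not called within 24 to 45 h either (adjusted p = 0.352). SREBF2 minus ABCG1 was -0.38 with median scaling (adjusted p = 0.209). With the second reading of the negative controls the differences were larger, -2.58 and -3.43 for the INSIG1 probes, -1.81 for SREBF2 and -1.64 for SREBF1, which was then called (adjusted p = 0.006).

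Against MYLIP all 4 probes had a lower slope, in a comparison where 77.7% of all tested probes did, since MYLIP itself rose. INSIG1 ILMN_12496 minus MYLIP was -2.07 over 45 h (SE 0.35, adjusted p = 3.94e-05) and INSIG1 ILMN_12839 minus MYLIP was -1.46 (SE 0.17, adjusted p = 2.99e-07). SREBF2 minus MYLIP was -1.27 (SE 0.23, adjusted p = 9.53e-05), and SREBF1 minus MYLIP was -1.12 (SE 0.26, adjusted p = 0.000921). INSIG1 ILMN_12839 minus MYLIP was -3.24 with the second reading of the negative controls. These 4 differences kept an adjusted p under 0.05 with the array batch as a block (0.00201, 0.00389, 0.0258 and 0.031) and within 24 to 45 h alone. Within 0 to 21 h alone only INSIG1 ILMN_12496 kept it (-2.07 over 21 h, adjusted p = 0.00649). The share of all tested probes called in these settings was not counted, against MYLIP or against ABCG1. A spline in place of the line, added after the values were seen, called all 4 differences from ABCG1 (against 43% of all tested probes) and all 4 from MYLIP (against 93%). A difference within an array shows unequal change and does not say which gene changed.

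**Figure D4:**
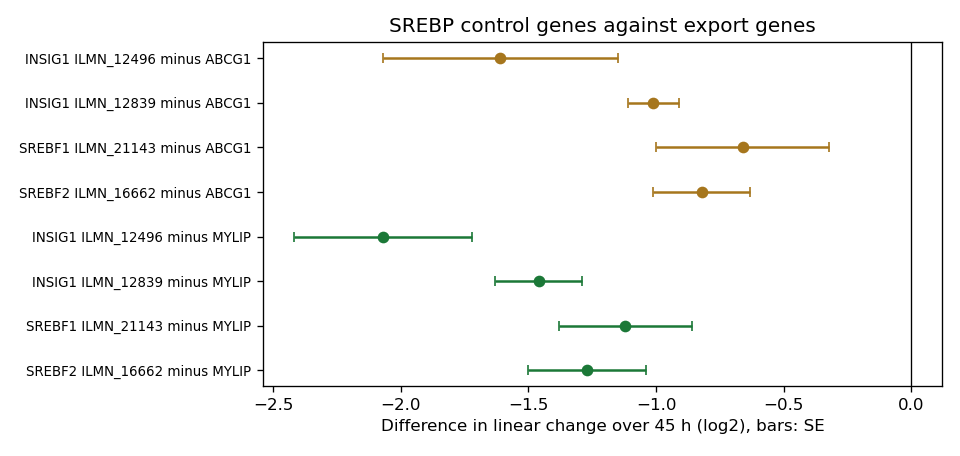
Difference in slope (log2 change over 45 h, points, with SE bars) between each followed probe of INSIG1, SREBF1 and SREBF2 and ABCG1 (upper 4) or MYLIP (lower 4) over the 16 arrays. All 8 points lie below 0, from -0.66 for SREBF1 minus ABCG1 to -2.07 for INSIG1 ILMN_12496 minus MYLIP, and the former was not called.

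Across the 16 arrays INSIG1 ILMN_12496 followed SREBF1 most closely among the other genes (Pearson r = 0.86), and its r was 0.56 with SREBF2, 0.66 with the other INSIG1 probe and -0.02 with MYLIP. INSIG1 ILMN_12839 and MYLIP had an r of -0.67. These values describe 16 arrays that share a time course and its batches. Of all tested probes the 3 most like INSIG1 ILMN_12496 were those of MKKS, a chaperonin-like gene, PPM1D, a protein phosphatase, and MXD1, a partner of MAX, each with r = 0.977. MKKS went from 10.44 at 0 h and 10.29 at 3 h to 9.06 at 6 h, the same step between 3 and 6 h. The 3 most like MYLIP were MANBA, a lysosomal beta-mannosidase (r = 0.921), MRRF, a mitochondrial ribosome recycling factor (r = 0.92), and C14orf147 (r = 0.909). MRRF went from 10.38 at 6 h to 11.07 at 45 h.

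The wider pathway gave the setting of these genes, from lists chosen with earlier results of these data known. In sterol synthesis all 20 listed genes were tested and time-dependent (against 41.9% of all tested probes), 20 were lower in the treated arrays (against 10.3%) and 18 had a lower slope (against 11.5%), with a median slope of -1.15. HMGCS1, the synthase before the rate-limiting step, had a fitted range of 3.81 (adjusted p = 3.11e-06), MVD, mevalonate decarboxylase, 2.94 (adjusted p = 2.29e-07) and DHCR7, a late reductase of the pathway, 2.23 (adjusted p = 5.73e-05). In fatty acid synthesis 7 of 9 tested genes were time-dependent (against 41.9%) and the same number were lower in the treated arrays (against 10.3%). The widest fitted ranges there were 1.71 for ACLY, which makes cytosolic acetyl-CoA, 1.53 for the desaturase SCD and 1.39 for the synthase FASN.

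Of 8 further genes that process SREBPs, 6 were tested, and 2 rose (against 12.9% of all tested probes), 1 fell (against 11.5%) and 3 had no called slope. MBTPS1, the protease that makes the first cut in SREBPs, rose by 0.53 over 45 h (SE 0.17, adjusted p = 0.0315). C12orf49, now SPRING1, which is needed for SREBP processing, fell by 0.27 (slope -0.27, SE 0.07, adjusted p = 0.00983). Of 13 LXR receptors and other LXR targets 9 were tested, and 4 had a higher slope (against 12.9%) and 1 a lower one (against 11.5%). SMPDL3A, a lipid phosphodiesterase, rose from 8.80 at 0 h to 10.14 at 45 h (slope 1.01, SE 0.15, adjusted p = 7.99e-05). NR1H3, which encodes LXR alpha, rose from 8.73 to 9.30 (slope 0.88, SE 0.19, adjusted p = 0.00247), and RXRA, a partner of the LXRs, from 10.86 to 11.48 (slope 1.05, SE 0.27, adjusted p = 0.00797). In the treated comparison this list was split, with 3 genes higher (against 8.62%) and 3 lower (against 10.3%). Of 14 other genes of sterol uptake and traffic 13 were tested and 5 were time-dependent, a share near the 41.9% of all tested probes. The widest fitted ranges there were 1.38 for NPC1, which moves cholesterol out of lysosomes, 1.24 for SCARB1, a receptor for high density lipoprotein, and 1.18 for LRP8, a lipoprotein receptor. SCARB1 fell (slope -0.82, SE 0.17, adjusted p = 0.00211), while NPC1 was lower (-0.81, adjusted p = 0.00697) and LRP8 higher (0.65, adjusted p = 0.0464) in the treated arrays than in the untreated one.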

How the data were processed

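RNA of 16 parallel cultures was measured on Illumina human Ref-8 v2 beadchips. The authors deposited probe intensity without normalization, together with a detection p-value that the authors' software gave. Background correction, quantile normalization and the log2 step used neqc of limma 3.58.1 in R 4.3.3 (offset 16, negative controls taken from the detection p-values). The controls inferred this way had an SD of 212 to 491 on an array, against 18 to 30.3 when read from the intensities at detection p-values near 0.5 and 0.16, and 21 to 56 probes per array with an intensity above 1000 were not called detected (0 of them from the followed genes). With the larger SD the changes of dim probes came out smaller, so the second reading was added as an alternative after the values were seen. Tests covered the 12321 probes (11565 symbols) detected at p under 0.05 on at least 3 arrays. A natural cubic spline of time (4 degrees of freedom) was tested by limma's moderated F-test, and a straight line gave the slope as log2 change over 45 h. For treated against untreated, the treated arrays carried a centred spline (3 degrees of freedom), and the 0 h array was assumed to scatter as they do. P-values were Benjamini-Hochberg adjusted over all tested probes, with 0.05 as the threshold. The fold threshold of 1.7 is that of the study's methods, with 0 h chosen as its baseline. The scripts were tested on simulated data with known changes.

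Samples were grouped by the time in their labels. The genes, the gene lists, the tests and the alternatives were chosen with earlier results of these data known, and fits from 6 to 45 h and splines of the differences were added after the values were seen. Named genes were the 9 genes (both INSIG1 probes, otherwise the brightest), the 3 probes most correlated with INSIG1 ILMN_12496 and with MYLIP, and the 3 widest time-dependent genes of each list, of which 1 is not reported here. Promoters came from a RefSeq table of GRCh38.p14, used for sequence only. The number of arrays limits the precision. The parallel cultures of the time points were not repeated, so p-values measure scatter about the fitted curve.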

Additional observations from a re-analysis of the deposited data

Results flagged for a closer look

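The change within 24 to 45 h differed from that within 0 to 21 h for 2 genes, by an interaction test in limma adjusted over all tested probes. For SREBF2 the later minus the earlier log2 change over 21 h was 0.98 (adjusted p = 0.0208), with a decrease in the first span and a level course in the second. For MYLIP it was 0.73 (adjusted p = 0.0179), with a level course first and a rise later. The same test called 24.8% of all tested probes, and the background of the arrays changed between 21 and 24 h. The part of the batch in these differences was not tested.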

How the results depend on the processing

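The spline called 6 probes, the straight line 5, the comparison with the untreated array 4, the fold threshold 4, and the differences from ABCG1 and MYLIP 7 of 8. With no normalization between arrays the straight line called 1 probe and the comparison with the untreated array 2 (share of all tested probes not counted). Of all tested probes the straight line then called 1320 higher and 95 lower, in place of 1584 and 1420. With the array batch as a block the straight line called 1 (against 6.17% of all tested probes). With sets of 4 time points as a block the spline called 2, the straight line 0 (2 at an unadjusted p under 0.05 in limma) and the differences 0 (2 against ABCG1 and 2 against MYLIP unadjusted). The share of all tested probes called with this block was not counted. Within 0 to 21 h alone the spline called 3, the straight line 2 and the differences 2. Within 24 to 45 h alone the spline called 2 and the straight line 3. The share of all tested probes that the spline called within each span was not counted, so these spline counts cannot be weighed. From 6 to 45 h alone, added after the values were seen, the straight line called 2. A 2-fold threshold left 2 probes, and the share of all tested probes past it was not counted. Leaving out 1 array in turn gave 5 to 6 for the spline, 2 to 5 for the straight line (2 without the 0 h or the 3 h array), 3 to 4 for the untreated comparison, 4 to 4 for the fold threshold and 6 to 8 for the differences. Other settings stayed within 1.5 times these counts, among them neqc with an offset of 50 and the second reading of the negative controls, both added after the values were seen. The offset of 50 alone changed little (INSIG1 ILMN_12839 range 0.89, ABCG1 0.12, MYLIP 0.64).

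Directions turned for uncalled or dim values, and all slopes here are scaled to 45 h, so that they differ from the changes over 21 or 39 h given above. SCAP minus its untreated level was -0.03 with median scaling and -0.14 without normalization, and its slope was -0.16 with the batch block and -0.57 within 0 to 21 h. ABCG1 minus its untreated level was -0.04 without normalization, and its slope was -0.09 within 0 to 21 h and -0.06 for its other detected probe. The MYLIP slope was -0.19 within 0 to 21 h (adjusted p = 0.722), in place of 0.58 (adjusted p = 0.00596). The SREBF1 slope was 0.01 without normalization and 0.36 from 6 to 45 h, where SREBF1 minus ABCG1 was 0.24, and leaving out 1 array gave -0.71 to 0.01, with the turn without the 0 h array. Leaving out the 42 h array brought the SCAP difference to 0. The cause was not tested.

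Scaling matters for direction over all tested probes: 52.7% of linear calls were higher with quantile normalization, 80.5% with median scaling and 93.3% without normalization, where the median slope was 0.21. SREBF1 minus ABCG1 was called with normexp on the signals alone (-1.09, adjusted p = 0.0184) and without the dim 9 h and 18 h arrays (-0.88, adjusted p = 0.0266). No paired analysis was possible because no time point was measured more than once.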
